A study of Mus musculus with 5 samples.

Results

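In IL-2-activated CD8-TC, 357 broad H3K4me1 domains shared 0 bp with any Runx3-bound region. A domain was a stretch of H3K4me1-marked regions joined across gaps under 1000 bp, and it was called broad when it was 5000 bp or wider. The members were thus chosen by measured values, namely domain width and the absence of a called Runx3 region, and both are given below as a description only. They were 357 of 14899 merged domains of any width (2.4%). Of all 1279 broad domains, 27.9% were without Runx3, and the other 922 held at least 1 Runx3-bound region.

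ChIP-seq had been performed on splenic CD8+ T cells (CD8-TC) of ICR mice, an outbred strain. The cells were selected with anti-CD8 magnetic beads, TCR-activated for 2 days with anti-CD3e and anti-CD28, and then kept for 4 days in 100 u/ml IL-2, a treatment that all libraries shared. There were 2 libraries with anti-Runx3 antibody, 2 with non-immune serum (NIS, the background control) and 1 with anti-H3K4me1 antibody. Since each antibody gave only 1 list of called regions, no value below has a replicate error and no test between samples was possible. The lists gave no read numbers, so the depth behind single regions was not analysed here, and the ranges in parentheses beside shares (95% Wilson intervals) cover only the counting error of the regions. As a check of the labelled cells, all 8 CD8 T cell marker genes had an H3K4me1-marked region in the gene or 5 kb upstream, compared to 4 of 8 B cell, 3 of 8 myeloid and 5 of 8 NK cell markers and 1 of 20 liver and neuron genes. Of all protein-coding genes 25.7% had one, so the B cell, myeloid and NK cell marker lists were above that share as well.

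H3K4me1, the monomethylated form of a lysine in the tail of histone H3, is deposited mainly by the Mll3 and Mll4 methyltransferases and is abundant at enhancers, both active and poised. At some genes of a cell type it spreads over several kb around clusters of enhancers. Runx3 is a RUNX family transcription factor that takes part in Cd4 silencing and in cytotoxic differentiation of CD8-TC, and it binds DNA through its Runt domain together with the partner Cbfb.

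As examples of stretches rich in RUNX motifs but without called Runx3 binding, 300-base windows are given for 5 of these domains. The windows of Ccdc88c, Nfatc2 and Pik3cd are among those richest in RUNX motifs in the 12 widest domains, and those of Gramd4 and the domain near Vrk1 come from the domains with the highest RUNX motif density. All were read 5′ to 3′ on the plus strand of mm9, outside annotated exons and wholly within called regions. Capitals mark each RUNX motif on either strand, that is TGTGGT or TGTGGC, or with a CG as TGCGGT or TGCGGC. A motif on the minus strand is written ACCACA or GCCACA, or with the CG as ACCGCA or GCCGCA.
Ccdc88c: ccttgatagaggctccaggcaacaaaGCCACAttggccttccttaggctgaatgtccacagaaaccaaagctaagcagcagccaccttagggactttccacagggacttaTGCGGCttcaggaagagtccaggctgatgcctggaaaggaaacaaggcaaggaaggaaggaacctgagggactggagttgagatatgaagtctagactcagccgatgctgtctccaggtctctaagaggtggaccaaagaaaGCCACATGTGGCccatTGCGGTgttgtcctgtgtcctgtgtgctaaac
Nfatc2: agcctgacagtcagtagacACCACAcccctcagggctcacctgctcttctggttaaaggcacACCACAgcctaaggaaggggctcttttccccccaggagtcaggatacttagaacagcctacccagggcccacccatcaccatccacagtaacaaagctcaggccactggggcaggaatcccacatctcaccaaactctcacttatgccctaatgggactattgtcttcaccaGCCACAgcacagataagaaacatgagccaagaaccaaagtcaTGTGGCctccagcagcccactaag
Pik3cd: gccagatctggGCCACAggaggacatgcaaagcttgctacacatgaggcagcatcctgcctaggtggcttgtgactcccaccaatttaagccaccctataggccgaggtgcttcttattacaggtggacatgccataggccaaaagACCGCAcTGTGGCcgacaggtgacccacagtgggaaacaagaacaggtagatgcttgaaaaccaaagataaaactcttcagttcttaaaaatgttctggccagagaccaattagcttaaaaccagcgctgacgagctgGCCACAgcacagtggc
Gramd4: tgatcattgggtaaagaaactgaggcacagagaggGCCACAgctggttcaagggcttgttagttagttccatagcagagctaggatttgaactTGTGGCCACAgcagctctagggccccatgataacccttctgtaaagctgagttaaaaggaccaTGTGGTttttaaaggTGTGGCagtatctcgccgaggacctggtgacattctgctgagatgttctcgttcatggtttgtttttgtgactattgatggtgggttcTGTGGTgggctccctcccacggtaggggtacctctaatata
near Vrk1: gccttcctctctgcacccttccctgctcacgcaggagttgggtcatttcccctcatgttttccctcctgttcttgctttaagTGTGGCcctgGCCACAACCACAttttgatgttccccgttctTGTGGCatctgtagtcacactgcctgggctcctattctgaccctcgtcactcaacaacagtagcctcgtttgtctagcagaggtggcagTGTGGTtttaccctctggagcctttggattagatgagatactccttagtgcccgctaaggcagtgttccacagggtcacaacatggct

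The Ccdc88c window (chr12:102245026-102245325, intron) had 5 motifs of 3 variants together with 5 ETS motifs. In the Nfatc2 window (chr2:168409025-168409324, first intron) and the Pik3cd window (chr4:149037476-149037775, intron) there were 4 motifs each. Gramd4 (chr15:85892787-85893086, first intron) had 6, of which 2 overlap so that their capitals run together, and the window near Vrk1 (chr12:107550816-107551115, intergenic) had 5. A window with at least 1 motif was not rare. Of all 300-base tiles of mm9 outside assembly gaps, 34.5% held at least 1 RUNX motif, compared to 44.2% of the tiles in the broad domains without Runx3 and 42.9% of those in broad domains holding Runx3, taken outside the Runx3-bound regions. Tiles with 4 or more motifs were rare, at 0.411%, 0.520% in broad domains holding Runx3 (outside Runx3-bound regions) and 0.252% in mm9. The 5 windows were thus picked for their many motifs and do not stand for the domains. A motif match is a description of the reference sequence and not a binding site, and the reference strain differs from ICR.

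The domains without Runx3 had a median width of 6240 bp (quartiles 5448 and 7301 bp, range 5002 to 22054 bp), compared to 6804.5 bp in broad domains holding Runx3. Widths of 10 kb or more occurred in 18 of 357 (5.04%) and in 181 of 922 (19.6%), respectively. Of the merged domains of all widths, 68.9% were without Runx3. This share fell from 86.6% of domains under 1 kb to 53.5% in the class of 3 to 4 kb, 34% in that of 5 to 6 kb and 22.9% in that of 8 to 10 kb. It was lowest among domains of at least 10 kb, at 9.05%. The number of Runx3-bound regions per kb of all merged domains was 0.130 to 0.159 in every width class. Just above the limit of 5000 bp were domains in Med27 (5002 bp) and Dennd1b (5003 bp) and one near Dusp4 (5008 bp). Just below it were domains near Pcgf5 (4997 bp), in Dopey2 (4994 bp) and in Elovl5 (4988 bp).

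**Figure D1:**
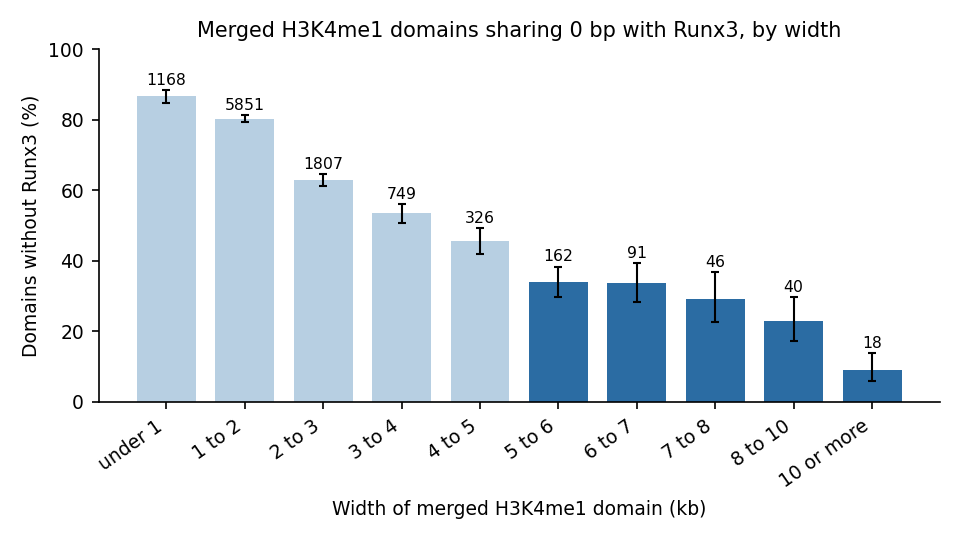
Share of merged H3K4me1 domains that shared 0 bp with a Runx3-bound region (y axis, percent) in each class of domain width (x axis, kb), with 95% Wilson intervals as bars and the number of such domains above each column. Dark columns are the broad classes, in which the share fell from 34% to 9.05%.

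Most of the domains were not single called regions. Of the 357 domains, 58 were 1 called region, 160 consisted of 2, 97 of 3 and 42 of 4 or more. The 853 called regions were separated by 496 gaps with a median of 216.5 bp, and 93.4% of the domain sequence was within called regions. Gaps were poorer in sequence that short reads can place. In the gaps, 88.0% of 32-base words occurred once in the genome, compared to 97.3% in the called regions, and the values in broad domains holding Runx3 were similar (88.3% and 97.1%). The part of this in the positions of the gaps was not tested. Most called regions, namely 6, were in the domains of Ccdc88c and Pik3cd. Several domains had 5, among them one in Phlpp1 (chr1:108212787-108222361), a phosphatase gene that acts on Akt.

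The 12 widest domains lay in 9 cases in protein-coding genes and in 3 cases between genes. The widest covered 22054 bp in the first intron of Fam53b (chr7:139977441-139999494), with 68 RUNX motifs and the nearest Runx3-bound region 5.88 kb away. The second covered 20134 bp in an intron of Ccdc88c (chr12:102238446-102258579), a gene for a Dishevelled-binding protein, and had 55 RUNX motifs. In Nfatc2 (chr2:168399196-168414482, 15287 bp, first intron), which encodes the calcium-regulated transcription factor NFAT1, a Runx3-bound region lay 1.73 kb beyond the domain edge. The domain in Hipk1 (chr3:103574074-103588351, 14278 bp), a nuclear protein kinase gene, had 7.54% coding sequence and was otherwise almost wholly intronic.

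The intronic domain of Fyn (chr10:39203872-39216497, 12626 bp) was the widest that was 1 uninterrupted called region. It lay 115 kb downstream of the start of Fyn, a Src family kinase gene of TCR signalling. The domains of Nck2 (chr1:43590572-43601802, 11231 bp, almost wholly intronic), an adaptor between tyrosine kinases and actin, and of Rin3 (chr12:103525360-103536485, 11126 bp, first intron), an exchange factor for Rab5, were also 1 called region each. Pik3cd (chr4:149033456-149044829, 11374 bp) encodes the PI3K catalytic subunit of leukocytes, and its domain came within 0.76 kb of a Runx3-bound region. The domain in Ubac2 (chr14:122327807-122339269, 11463 bp, intron) was 12.8 kb from the start of Gpr18, a receptor gene nested in that locus. The intergenic domains lay 37.8 kb from Blm (chr7:87717817-87729820, 12004 bp), 52.1 kb from Arl4c (chr1:90535131-90546661, 11531 bp) and 86.5 kb from Itgb1 (chr8:131111775-131123043, 11269 bp), by the nearest protein-coding gene start. None of the 12 held the start of a protein-coding gene, but other transcript starts lay in those of Fam53b (5), Hipk1 (4) and Pik3cd (1). More RUNX motifs per kb than in their own 5 kb flanks were found in 8 of the 12, compared to 58.0% of all 357. In these domains 93.7 to 99.6% of 32-base words occurred once in the genome, while the median over all 357 domains was 97.5%.

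**Figure D2:**
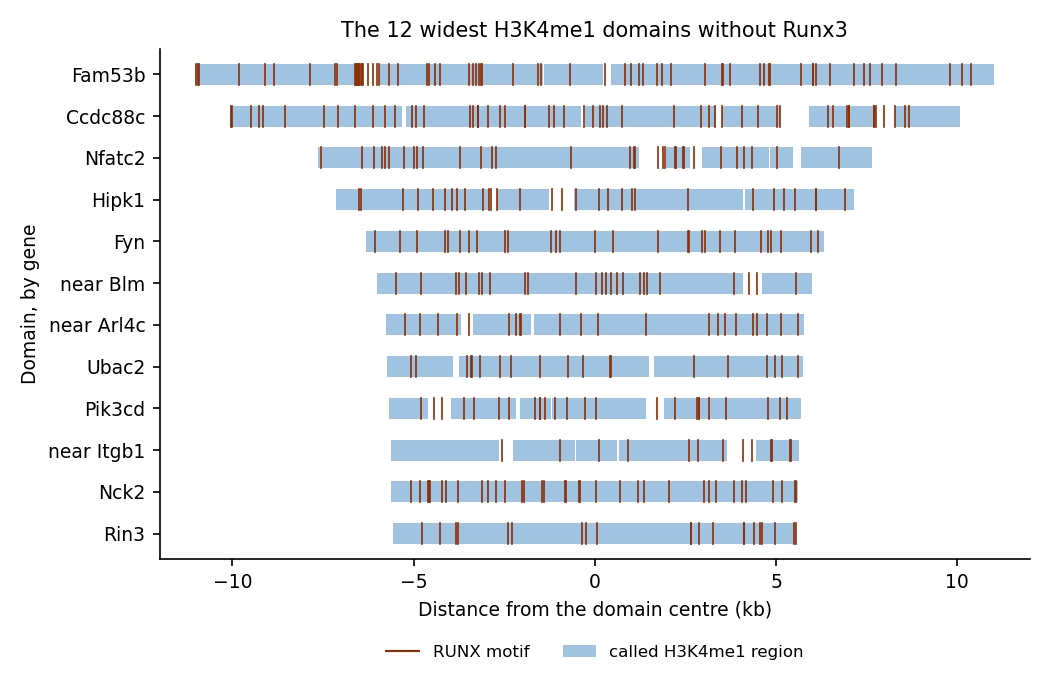
The 12 widest domains (y axis, by the gene they lie in or near), drawn to scale around the domain centre (x axis, kb), with called H3K4me1 regions as blue bars, gaps closed by the merging as white spaces and RUNX motifs as brown ticks. Motifs occur in all 12 domains, from 13 near Itgb1 to 68 in Fam53b, but not evenly. Near Itgb1 the first motif lies at -2.56 kb, while the domain begins at -5.63 kb.

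The domains were mainly intragenic. Of the 357, 259 (72.5%, 67.7 to 76.9%) touched a protein-coding gene, compared to 66.7% (63.6 to 69.7%) of broad domains holding Runx3 and 62.8% (61.8 to 63.7%) of narrower domains without Runx3. Only intronic sequence was found in 152 (42.6%), compared to 30.7% and 43.1% in those sets. A base with a coding exon was shared by 80 (22.4%), compared to 29.2% and 14.5%. By bases, coding sequence made up 1.09% of the domains, compared to 1.20% and 1.74%. The sets differ in width, so the share touching a gene was also compared within width classes. At 5 to 6 kb, 66.7% (59.1 to 73.5%) of domains without Runx3 and 62.2% (56.8 to 67.4%) of those holding it touched a protein-coding gene. At 6 to 8 kb the shares were 78.1% (70.5 to 84.2%) and 63.9% (58.3 to 69.2%). At 8 kb and above they were 75.9% (63.5 to 85.0%) and 73.7% (68.6 to 78.3%). The part of width in the other shares of domains, and against narrower domains, was not tested. Domains touching no annotated gene of any type numbered 87 (24.4%).

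First introns made up a large part of the sequence. More than 50% of the domain was first intron in 122 of 357 cases (34.2%, 29.4 to 39.2%), compared to 23.1% (20.5 to 25.9%) of broad domains holding Runx3 and 24.2% (23.4 to 25%) of narrower domains without Runx3. By bases, 35.4% of their sequence was first intron, compared to 26.3%, 25.1% and 8.61% of the genome outside assembly gaps. Since the sets differ in width, the comparison was repeated within width classes. At 5 to 6 kb the share of domains was 30.9% (24.3 to 38.4%) without and 20% (16.0 to 24.8%) with Runx3, and at 6 to 8 kb it was 38.0% (30.3 to 46.3%) and 19.2% (15.1 to 24.2%). At 8 kb and above the shares were 34.5% (23.6 to 47.3%) and 29.7% (25 to 35%). The intervals overlapped at 5 to 6 kb and at 8 kb and above, and were separate at 6 to 8 kb. The 233 domains inside 1 gene were centred at a median of 0.346 of the gene length from its start (26.6 kb), compared to 0.430 (32.6 kb) for 519 broad domains holding Runx3.

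Annotated starts lay in a minority of the domains, and no share over the genome was computed. By length, the called regions of the domains had 0.0425 transcript starts per kb and their gaps 0.0637. In broad domains holding Runx3 these values were 0.0313 and 0.123. A transcript start of any kind lay in 65 (18.2%, 14.5 to 22.5%), compared to 16.2% (13.9 to 18.7%) of broad domains holding Runx3. At 5 to 6 kb the shares were 17.9% and 16.5%, and at 6 to 8 kb 16.1% and 14.8%. At 8 kb and above they were 24.1% and 17.1%. In narrower domains without Runx3 the share was 6.49%, but their median width was 1561 bp, compared to 6240 bp. Wider domains have more room for a start, and the part of width in the difference from narrower domains was not tested. The start of a protein-coding gene lay in 18 of the 357 domains (5.04%). These included Cd244 (chr1:173487994-173494733, an NK and T cell receptor of the SLAM family) and Cd101 (chr3:100832654-100838882, an inhibitory receptor). Tyrobp (chr7:31193430-31198961, the signalling adaptor DAP12) and Klrb1c (chr6:128738247-128743997, the NK1.1 receptor) were further ones. Outside the rule for named genes, the T cell genes Cd7 and Lime1 and the GTPase regulator Rgs3 were also among them and were chosen after their values were seen. From the 18 gene starts the nearest Runx3-bound region was 3.72 to 109 kb away (median 11.6 kb). The start lay in a called region in 16 cases and in a gap in 2. The Klrb1c domain had the lowest share of unique 32-base words of all members, 76.6%, in a cluster of closely related lectin receptor genes.

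Runx3-bound regions were often close by. The nearest one was at a median of 11.2 kb from the domain edge (quartiles 4.71 and 26.8 kb), compared to 19.8 kb for narrower domains without Runx3. It lay within 1 kb of 29 domains (8.12%), within 5 kb of 97 (27.2%), within 10 kb of 166 (46.5%) and within 100 kb of 337 (94.4%). Among narrower domains without Runx3, the shares at these distances were 6.78%, 20.6%, 33.6% and 86.4%. Closest was the domain in the first intron of Elmo1 (chr13:20183587-20191500, 7914 bp), a Rac activator of cell migration, which ended 0.039 kb from a Runx3-bound region (chr13:20182874-20183547). Farthest was an intronic domain in Mdfic (chr6:15736968-15743457, 6490 bp), at 1862 kb. Another H3K4me1 domain that did hold Runx3 lay within 10 kb of 136 domains (38.1%) and within 50 kb of 272 (76.2%).

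The 357 domains had 335 different nearest Runx3-bound regions. Of these, 226 (67.5%) were themselves H3K4me1-marked, compared to 57.3% of all Runx3-bound regions, and 76 (22.7%) were centred under 1 kb from a transcript start, compared to 26.3% of all. The rule itself keeps these regions out of the domains, so the values are given as a description.

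**Figure D3:**
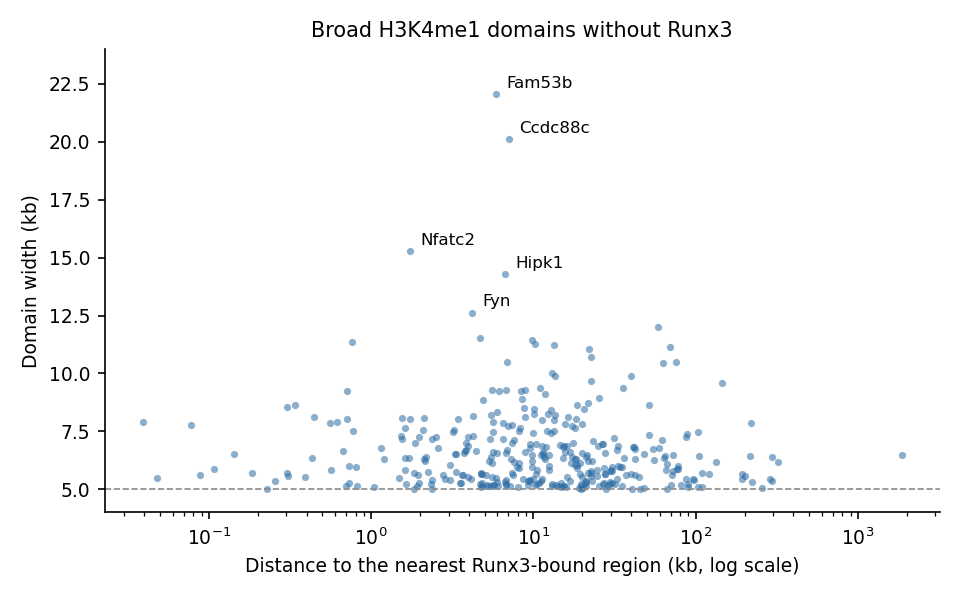
Width of each of the 357 domains (y axis, kb) against its distance to the nearest Runx3-bound region (x axis, kb, log scale), with the 5 widest named and the lower limit of 5 kb dashed. The points gather around the median distance of 11.2 kb, and the 5 widest lie between 1.73 and 7.04 kb.

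RUNX motifs were present in all 357 domains, from 4 to 68 in each. The density over all domain sequence was 2.01 motifs per kb, compared to 1.85 in the 5 kb flanks and 1.48 in the genome outside assembly gaps. In broad domains holding Runx3 it was 1.92 per kb outside the Runx3-bound regions and 3.98 inside them. Domain by domain, the median was 1.91 per kb (quartiles 1.54 and 2.43), and 207 of 357 domains (58.0%) exceeded their own flanks. The domains without Runx3 thus had a motif density close to that of the unbound sequence of the other broad domains. GC content was 46.7% in the domains, 46.2% in the flanks, 46.5% in the unbound sequence of broad domains holding Runx3 and 41.8% in the genome, and its part in these densities was not tested.

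The motif variants did not all follow this order. TGTGGT occurred at 0.986 per kb in the domains, 0.907 in the flanks and 0.774 in the genome, and TGTGGC at 0.861, 0.736 and 0.587 per kb. The variants with a CG were rare, and both were lower in the domains than in the flanks. TGCGGT occurred at 0.0798 and 0.0908 per kb, and TGCGGC at 0.0807 and 0.112 per kb, respectively. The members with the highest density were Gramd4 (chr15:85890192-85897698, 4.00 per kb) and the domains near Vrk1 (chr12:107545172-107551581, 3.74 per kb) and near Adrb1 (chr19:56752981-56758128, 3.69 per kb). The lowest were in Rap1b (chr10:117271680-117280298, 0.58 per kb), a GTPase gene of integrin activation, near Gm10293 (chr3:52433221-52439221, 0.667 per kb) and in Dgkd (chr1:89758072-89764738, 0.75 per kb), a diacylglycerol kinase gene. The Rap1b domain, which had the fewest motifs per kb, was only 0.337 kb from a Runx3-bound region, and the domain near Vrk1 was 297 kb from one.

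**Figure D4:**
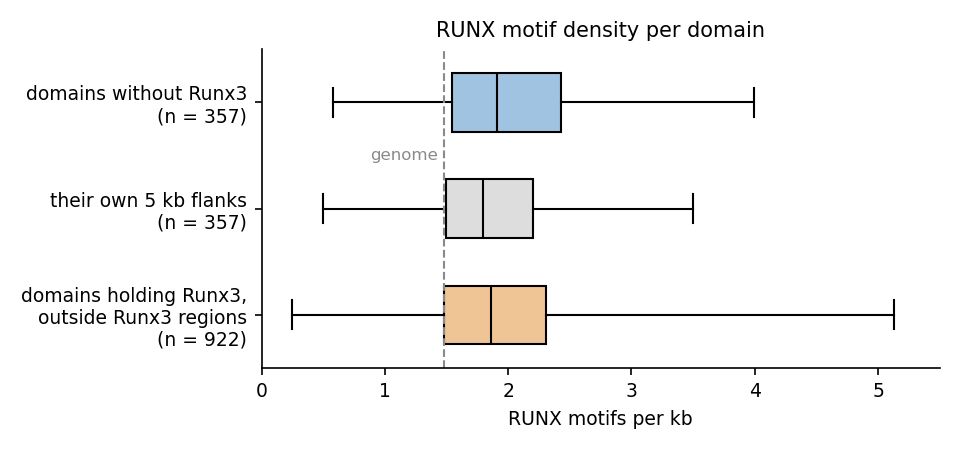
RUNX motifs per kb (x axis) in each of the 357 domains without Runx3, in the 5 kb flanks of each, and in each of 922 broad domains holding Runx3 after removal of the Runx3-bound regions. Boxes span the quartiles around the median, whiskers reach the lowest and highest values and the dashed line is the genome at 1.48. The medians of 1.91, 1.80 and 1.86 differ by less than the width of any box.

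Motifs of frequent partners of RUNX factors were counted in the same way. Each kind of motif was counted on both strands on its own, whether or not it overlapped another. The ETS motif (AGGAAA or AGGAAG, or with a CG as CGGAAA or CGGAAG) occurred at 3.55 per kb, compared to 3.35 in the flanks, 3.37 in broad domains holding Runx3 outside the Runx3-bound regions and 3.10 in the genome. The AP-1 motif (TGACTCA or TGAGTCA) occurred at 0.243 per kb, compared to 0.178 in the flanks, 0.223 in broad domains holding Runx3 outside the Runx3-bound regions and 0.164 in the genome. Narrower domains without Runx3 had higher densities than the broad ones for RUNX and ETS motifs, at 2.14 and 3.73 per kb. Their AP-1 density of 0.248 per kb was close to the 0.243 of the broad domains. At least 1 AP-1 motif was found in 277 domains (77.6%, 73.0 to 81.6%), compared to 747 of 922 broad domains holding Runx3 (81.0%, 78.4 to 83.4%). In the Ccdc88c domain there were 7.

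A broad domain without Runx3 lay in or up to 5 kb upstream of 259 of 22367 protein-coding genes (1.16%), and a broad domain holding Runx3 at 615 (2.75%). Both kinds were found at 86 of the 259. These were long genes, with a median of 76.6 kb compared to 15.4 kb for all protein-coding genes. A Runx3-bound region occurred elsewhere in the gene or 5 kb upstream for 189 of the 259 (73.0%), while 20.7% of all protein-coding genes had one. At the gene start itself, within 1 kb, a Runx3-bound region was found for 51 of the 259 genes (19.7%, 15.3 to 25%), compared to 132 of 529 genes (25%, 21.5 to 28.8%) that had only broad domains holding Runx3 and 9.42% of all genes. Among 4954 genes with an H3K4me1-marked region but no broad domain it was 18.2% (17.2 to 19.3%), close to the share of the 259. Each gene list below is read against 1.16%, and for the pathway lists the median gene length is given beside it. The part of gene length in these counts was not tested.

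TCR signalling genes carried such domains at 8 of 40 genes (20%, median gene length 44.9 kb), and 17 of the 40 had a broad domain holding Runx3. Fyn had 4 domains without Runx3. They were 5702, 6940, 12626 and 5951 bp wide and centred 5.69, 89.5, 122 and 148 kb downstream of its start. Cblb, an E3 ligase gene that restrains TCR signals, had one of 7807 bp in an intron (chr16:52054349-52062155). Prkcq, the protein kinase C theta gene, had a pair of 7491 and 7507 bp in its first intron (chr2:11097647-11105137 and chr2:11106158-11113664), and the second ended 0.777 kb from a Runx3-bound region. Lck, the kinase that phosphorylates the TCR complex, had an intronic domain of 6322 bp (chr4:129240307-129246628). Of the 8 genes, only 2 had no Runx3-bound region, namely Pag1 and Dgkz, which encode a membrane adaptor and a diacylglycerol kinase and fall outside the rule for named genes.

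T cell transcription factor genes had such domains at 9 of 63 (14.3%, median gene length 41.3 kb) and broad domains holding Runx3 at 21. All 9 also had a Runx3-bound region elsewhere in the gene or upstream. Nfatc2 had a second domain of 9667 bp (chr2:168379765-168389431) with 31 RUNX motifs, 22.6 kb from the nearest Runx3-bound region. Prdm1, which encodes the effector regulator Blimp-1, had a domain of 9294 bp (chr10:44162316-44171609) of low motif density (0.753 per kb). The domain upstream of Foxp1, a quiescence regulator, was 8221 bp wide and lay in an intron of its neighbour Eif4e3 (chr6:99219490-99227710). Bcl11b, a T cell identity gene, had an intronic domain of 7665 bp (chr12:109204914-109212578) made of 5 called regions. Runx3 itself, named here after its values were seen, had a domain of 5985 bp (chr4:134710206-134716190) with 17 RUNX motifs. This domain was centred 36.6 kb downstream of the annotated gene start and lay 33.4 kb from the nearest Runx3-bound region. It held 1 transcript start, and 2.62% of it was coding sequence and 7.74% other exon sequence.

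The PI3K and mTOR list had 4 of 27 (14.8%, median gene length 70.8 kb). Besides Pik3cd, these were Inpp5d (SHIP-1, a phosphatase that opposes PI3K, 5945 bp, chr1:89519284-89525228, first intron), Pik3r1 (the p85 regulatory subunit, 5507 bp, chr13:102464984-102470490, intron) and Inpp4a (a lipid phosphatase, 5178 bp, chr1:37363662-37368839, first intron). Among cytokine receptor and JAK-STAT genes there were 4 of 37 (10.8%, median gene length 27.2 kb). The Il10ra domain (6605 bp, chr9:45081767-45088371) was upstream of the gene. The domains of Il4ra (5263 bp, chr7:132700261-132705523), Tgfbr2 (5252 bp, chr9:116043415-116048666) and Ifnar1 (5227 bp, chr16:91487156-91492382) lay within their genes, which encode receptors for IL-4, TGF-beta and type I interferon. The Il4ra domain was 0.725 kb from a Runx3-bound region, and the other 3 were 10.5 to 11.5 kb away.

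Adhesion and homing genes had 3 of 28 (10.7%, median gene length 17.3 kb). The first intron of Itgb2, the CD18 chain of LFA-1, held a domain of 8470 bp (chr10:76995599-77004068), and the gene had no Runx3-bound region. Pecam1 (6384 bp, chr11:106522134-106528517) and Cd44 (5137 bp, chr2:102688356-102693492), adhesion receptor genes, had domains within the gene. Costimulatory and inhibitory receptor genes had 2 of 24 (8.33%, median gene length 26.6 kb), Cd244 (6740 bp) and Cd101 (6229 bp), both described above and both without a Runx3-bound region. Of the cytotoxic effector genes, 2 of 34 (5.88%, median gene length 7.07 kb) were counted, but Tnf and Lta are neighbours and share 1 intergenic domain (chr17:35342810-35348668, 5859 bp), which ended 0.108 kb from a Runx3-bound region.

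Of the marker and control lists, CD8 T cell markers had 1 of 8, the Lck gene already given. B cell and myeloid markers and the liver and neuron genes had 0 of 8, 0 of 8 and 0 of 20. NK cell markers had 2 of 8, the Klrb1c (5751 bp) and Tyrobp (5532 bp) domains, while the defining NK gene Ncr1 had no H3K4me1-marked region. Ribosomal protein genes had 1 of 37 (2.7%). This was Rpl11 (5154 bp, chr4:135582802-135587955), where the domain lay at the far end of an annotated gene span of 25.2 kb, 24 kb from its start.

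**Figure D5:**
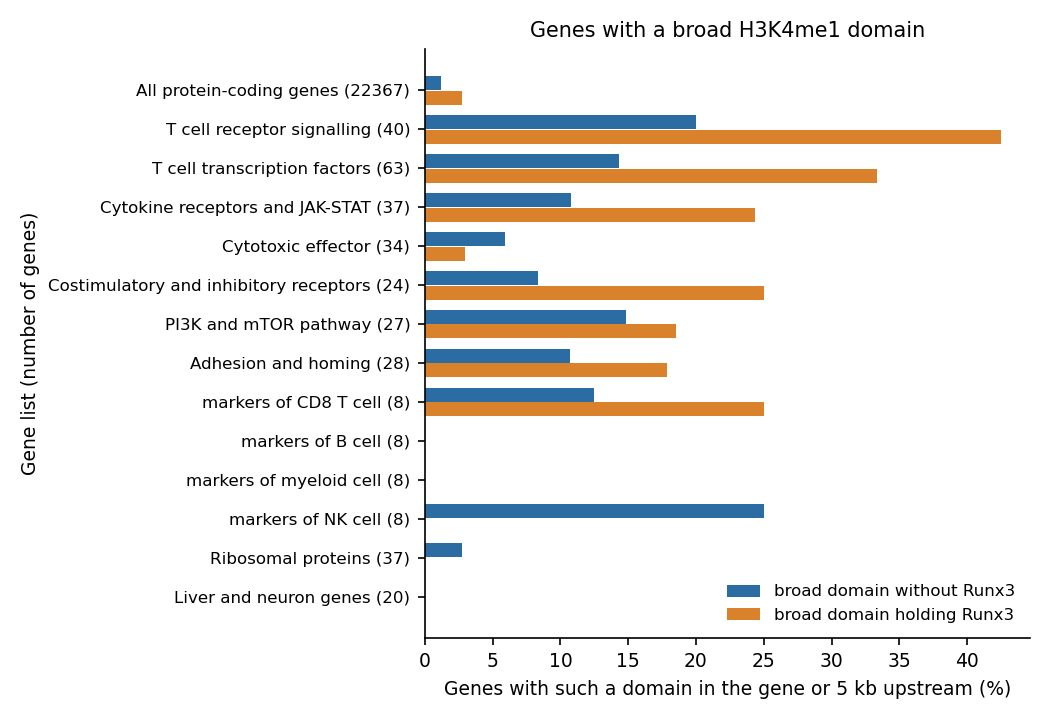
Share of genes in each list (y axis, with the number of genes) that had a broad H3K4me1 domain without Runx3 (blue) or holding Runx3 (orange) in the gene or 5 kb upstream (x axis, percent). Without Runx3 the shares of the lists ran from 0 to 25%, compared to 1.16% of all protein-coding genes.

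Several genes carried more than 1 domain. There were 24 such genes, with a median length of 130 kb. The following were chosen after their values were seen. Ankrd11, a chromatin regulator gene, had 4 domains in its first intron, of 7000, 11038, 6486 and 5360 bp. Bcl2l1, which encodes the survival protein Bcl-xL, had 3, of 6798, 6488 and 6040 bp, and Bcl2, its relative, had 2 in its first intron, of 6116 and 5089 bp. Tnfrsf8, the CD30 receptor gene, had 2 with 3.05 and 3.07 RUNX motifs per kb. The annotated gene Gm20388 spans 4435 kb of chromosome 8 over other genes, Ankrd11 among them, and its 6 domains are in part the same ones.

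No Runx3-bound region at all was found in 70 of the 259 genes or 5 kb upstream. These genes were shorter, with a median of 34.1 kb compared to 100 kb for the 189 with one. The 3 with the widest domains, again chosen after their values were seen, were Ptpn2 (9884 bp), a phosphatase gene that restrains JAK-STAT and TCR signals, Dcun1d3 (8720 bp) and Ndfip1 (8631 bp), which encodes an adaptor of Nedd4 family ligases. The nearest Runx3-bound region was 50.5 kb from the Ptpn2 gene and 20 kb from Ndfip1.

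The domains were found on all 19 autosomes, from 7 on chromosome 13 to 33 on chromosome 1. Among broad domains, the share without Runx3 ranged from 14.0% on chromosome 9 (12 of 86) to 39.7% on chromosome 6 (29 of 73). The X chromosome had no broad domain of either kind, with 51 merged domains in all.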

How the data were processed

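The deposited files were 2 lists of positions, in which the authors gave the start and end in bp of each region called for H3K4me1 and for Runx3, with no score, height or read number. The authors sequenced 40 to 42 bases of fragments of about 300 bp, used ELAND to place them on mm9 and discarded reads with more than 1 position. Repeat libraries were pooled, and MACS then called peaks over the NIS background after the larger read set had been scaled down. Joining hides the spread between repeats, scaling and unique alignment limit what can be called, and a Runx3 region below the calling threshold counts here as absent. The paper reports fewer uniquely aligned Runx3 than H3K4me1 reads in these cells, and fewer than in its other Runx3 read sets. The protocol speaks of 2 replicate experiments for both antibodies, but 1 H3K4me1 library is labelled.

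H3K4me1-marked regions with gaps under 1000 bp were merged. Domains of 5000 bp or more that shared 0 bp with any Runx3-bound region were kept, and sharing 1 bp counted as holding Runx3. Sequence and annotation were NCBIM37, which is mm9, and GENCODE vM1, and 0 regions ended beyond their chromosome. Coordinates are counted from 1. A first intron is intron 1 of the transcript with the most exonic bases of each protein-coding gene. Genes were assigned by their body or 5 kb upstream. Uniqueness is the share of 32-base words found once in the genome. A domain is named by the gene it overlaps most, otherwise by the nearest gene start. All 378 listed genes were matched by symbol or older symbol. One of the gene lists and 1 sequence window are not reported here.

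Named were the 12 widest domains, up to 4 genes with the widest domains in each list, the domains on both sides of the width limit, and the extremes of Runx3 distance, RUNX density and number of called regions. The members and lists were chosen with earlier results of these data known. Since each antibody has 1 list, no test between samples was run. Alternatives changed the merging gap, the width limit, the distance to Runx3, the motif and the gene assignment. Python 3.11.15, NumPy 2.4.6, SciPy 1.17.1, Numba 0.67.0 and matplotlib 3.10.9 were used, and the functions were tested on simulated data.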

Additional observations from a re-analysis of the deposited data

How the results depend on the processing

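Merging gap, width limit, distance to Runx3, motif and gene assignment were varied for 11 results. Of 67 alternative values, 41 stayed within the interval of the reported value, or within 1.5 times of a count, and 26 moved. For the first intron share, GC content and called share, that interval counted single bases, which are not independent. It was therefore too narrow, and small shifts of these results counted as moved. By more than 1.5 times, 8 values moved. With a merging gap of 500 bp, 40.3% of the sequence was first intron, GC content was 46.8%, the median distance to Runx3 was 8.78 kb and called regions covered 96.9% of the width. With 2000 bp the first intron share was 33.6%, GC content 46.6% and the called share 83.2%, and 405 genes had such a domain. At 6 kb or wider, 195 domains and 149 genes remained, 77.4% touched a protein-coding gene, 37.9% of the sequence was first intron, called regions covered 93.2% and ETS motifs occurred at 3.44 per kb. Without merging there were 120 domains, and at 4 kb or wider 683. With no Runx3-bound region within 5 kb the values were 33.2% first intron, 46.8% GC, 18.1 kb and 93.2% in called regions. With 1 start per protein-coding gene, 5.04% of domains held a start, and with TGTGGT alone the RUNX density was 0.986 per kb. Chosen after seeing the data were domains with at least 95% unique words (36.7% first intron, 46.8% GC, 94.0% in called regions) and the omission of genes over 1 Mb, such as Gm20388 and a long Fgfr2 model over Fam53b (34.6% first intron). The causes of these shifts were not tested, apart from the fewer domains that a stricter limit leaves. No paired analysis was possible because each antibody has 1 list made from joined reads. For the same reason no replicate could be left out, and the statement that a domain lacks Runx3 holds only at the authors' calling threshold and depth, which were not varied here.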
